A study of Mus musculus with 8 samples.

Results

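The proteasome is the large protease that breaks down ubiquitin-tagged proteins. Here 42 of the 11789 genes listed for the series were taken as its members: every name that begins with Psm, a letter from a to g and a digit, provided its normalized counts averaged 10 or more across the 8 libraries, leaving out the interferon-induced subunits Psmb8, Psmb9 and Psmb10. Of 46 names with that pattern, 3 were left out as interferon-induced and 1, Psmg4, had a mean under 10. The rule used no difference between genotypes. Total RNA of the whole pancreas was sequenced at an age of 6 weeks, with each library taken as 1 animal. The labels put 4 mice in a wild type group and 4 in a group labelled Daxxfl/flPdx1-CreTg, called mutant here (Daxx deleted in the plots), with 2 females and 2 males per genotype by the series' design text. The Pdx1 promoter drives Cre in the embryonic pancreatic epithelium, from which acini, ducts and islets arise, so that endothelium, fibroblasts, blood cells and adipocytes keep Daxx. No group carried Pdx1-Cre alone or floxed Daxx alone, so effects of the transgene, of the floxed alleles and of Daxx loss cannot be told apart.

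The core of the proteasome, called 20S, is a barrel of alpha rings, which hold the gate, and beta rings, in which Psmb5, Psmb6 and Psmb7 carry the proteolytic sites. The regulatory cap, called 19S, has a base with a ring of ATPases (Psmc genes) that unfold substrates, and a lid (most Psmd genes) that holds the deubiquitinase Psmd14. Assembly chaperones build core and cap, activators of the Psme family open the core without ubiquitin, and Psmf1 encodes PI31, a protein that binds the core. The transcription factor Nfe2l1 raises these genes together when proteasome activity falls. Pancreatic acinar cells make digestive enzymes in bulk, and misfolded secretory proteins leave the endoplasmic reticulum for degradation by the proteasome.

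The libraries held 7705789 to 10517508 reads over the listed genes, and the 42 members together took 0.0536% to 0.0776% of them. The tissue label was checked on 12 acinar markers, all of which were listed, with Ctrb1 at 714754 to 1263620 normalized counts and the transcription factor Ptf1a at 100.1 to 220.5. The summed islet, ductal, stromal, endothelial and immune markers were lower than the summed acinar markers in every library. Between genotypes, 1 of the 12 acinar markers lay above 0 and 11 below (median log2 fold change -0.10), where 48.1% of all tested genes lay above 0. With equal library totals 8 lay above 0 (median 0.03, all tested genes 0.11), where 74.3% of all tested genes did. Relative to the median of all tested genes, 2 of the 12 lay above it under both settings. Of 7 islet markers 1 lay above 0 and 6 below (median -0.39), and leaving out single libraries moved the median both ways. It was -0.03 without mutant replicate 2, -0.06 without mutant replicate 1 and -0.08 without wild type replicate 1. It was -0.67 without mutant replicate 3, -0.65 without wild type replicate 2 and -0.52 without mutant replicate 4. No marker of either list was called, and the part of cell composition in the results on the proteasome was not tested. In bulk tissue, fewer cells of a type and less RNA per cell cannot be told apart. Daxx, the targeted gene, stood at 39.7, 58.7, 46.7 and 45.2 normalized counts in wild type replicates 1 to 4, while mutant replicates 1 to 4 gave 26.8, 23.3, 29.2 and 32.5, with no overlap between genotypes. Its log2 fold change was -0.74 ± 0.20 (SE, n = 4 and 4; exact two-sided permutation p = 0.0286, the smallest that 70 relabellings allow), and its limma adjusted p over all tested genes was 0.9997.

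Promoter sequences from RefSeq (GRCm38.p6, 250 bases before to 50 after each start) were given for 35 of the 42 members. They are shown for matches to the core of the antioxidant response element, the kind of site that Nfe2l1 binds, because that factor is known to raise these genes together. The letters searched were TGACNNNGC, on both strands. Of the 35 members, 6 held a match (17.1%), against 17.1% of the 8285 tested genes with a promoter entry and 14.0% of all 27025 genes with one. In the windows below, read on the gene's strand, capitals mark the match, which lies on the opposite strand in Psmc6, Psmd12 and Psme4.
Psmb5, chr14:54618018-54618058, minus strand: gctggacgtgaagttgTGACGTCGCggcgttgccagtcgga
Psmb6, chr11:70525332-70525356, plus strand: ggcggactaaagagagTGACGGAGC
Psmc6, chr14:45329581-45329621, plus strand: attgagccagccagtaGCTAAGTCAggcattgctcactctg
Psmd9, chr5:123228143-123228183, plus strand: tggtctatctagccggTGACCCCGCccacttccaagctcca
Psmd12, chr11:107479278-107479305, plus strand: tctGCTGTGTCAcatttgcccccctcag
Psme4, chr11:30771758-30771786, plus strand: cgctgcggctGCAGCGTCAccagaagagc
Between genotypes the median log2 change of these 6 was 0.01, with 3 above and 3 below 0, and the 29 members without a match also had a median of 0.01.

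A second set of letters, CCGGAAG, the core bound by ETS family factors, was chosen after its matches had been seen. It was in 14 of the 35 promoters (40.0%), against 21.3% of tested genes and 9.93% of all genes. It is shown for Psmd11 and Psmg3, which had the smallest unadjusted p among the members, with the match on the opposite strand in Psmd11.
Psmd11, chr11:80428588-80428614, plus strand: gaacgcgagggcgggtCTTCCGGgtgt
Psmg3, chr5:139826874-139826900, minus strand: cggacaggaaCCGGAAGttctcgccgg
Psma3, Psma5 and Psmc5, next in unadjusted p, had no match to this core, and Psmd6 after them had a match. For the 14 with this core the median log2 change was 0.01, with 8 above and 6 below 0, and the 21 without it had a median of 0.00. The letters CCAAT, bound by NF-Y, were in 12 of the 35 promoters (34.3%) and in 42.7% of tested genes.

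All 42 members were expressed in all 8 libraries, with 7 to 974 reads per member and library. To compare genes, the normalized count was divided by the exonic length in kilobases (kb), the joined length of all annotated exons over all transcripts. Annotated exons that this tissue does not use lower the value, and their part in the levels per length was not tested. On this scale the median member was at 41.1 per kb and the median tested gene at 14.8. Most members of the core and cap stood above their chaperones. The 14 core subunits ran from 22.6 to 141.5 per kb with a median of 43.6, and the 17 cap subunits ran from 19.1 to 112.1 with a median of 47.7. Within the alpha ring, whose 7 subunits are present in equal copies, the highest mean per kb was 3.71 times the lowest. These were Psma6, with 1.23 kb of annotated exons, and Psma3, with 3.89 kb. The 3 cap chaperones ran from 4.31 to 10.4 and the 3 tested core chaperones from 4.14 to 24.9. The plot of levels per length gives both genotypes side by side.

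**Figure D1:**
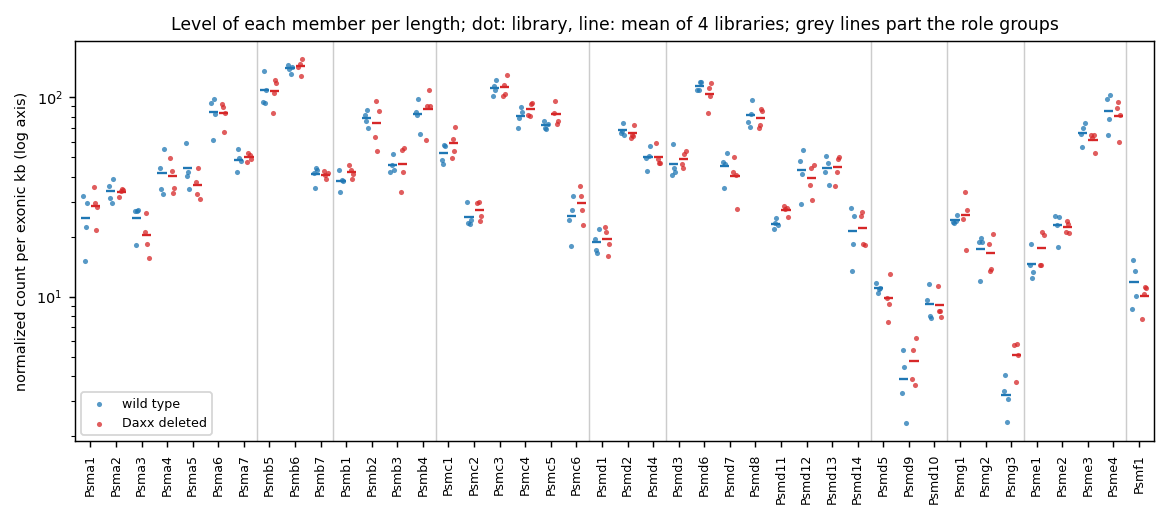
Normalized count per exonic kilobase (log axis) of each of the 42 members, grouped by role; each dot is 1 library (blue wild type, red mutant) and each line the mean of 4 libraries. Psmb6 is highest at 141.5 per kb over all libraries, and Psmg3 and Psmd9 are lowest at 4.14 and 4.31.

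No member was called between genotypes. By limma with Benjamini-Hochberg adjustment over all 10468 tested genes, 0 of 42 members had an adjusted p under 0.05, where 0% of all tested genes did, and the adjusted p was 0.9997 for every member. At an unadjusted p under 0.05 there were also 0 of 42 members, where 2.88% of tested genes passed (1.32% higher and 1.57% lower in mutants). edgeR and DESeq2 on recovered reads each called 0 members, with 0 at an unadjusted p under 0.05. The log2 fold change was above 0 for 22 members and below 0 for 20 (52.4% above, against 48.1% of all tested genes). The median log2 fold change was 0.00 over the members and -0.01 over all tested genes, and the median absolute value was 0.09 and 0.12. The interval of a difference bounds what these libraries could miss. The 95% interval reached 0.36 log2 units to each side in the median member, or 1.29-fold. For 32 of the 42 members it lay within a 1.5-fold change in either direction, and for 41 within a 2-fold change, the exception being Psmg3. With equal library totals in place of the authors' size factors, the median of all tested genes moved to 0.11 and 36 of 42 members lay above 0, but relative to that median 25 did, as with the authors' size factors.

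**Figure D2:**
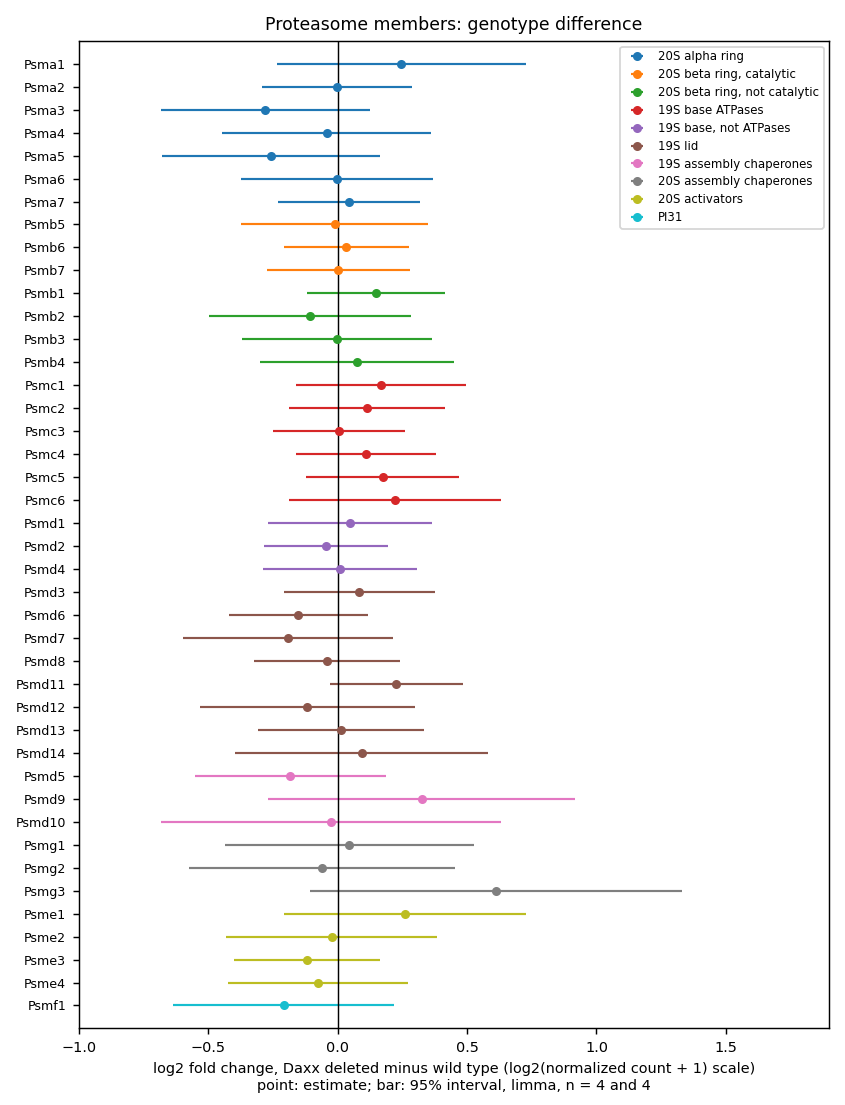
Log2 fold change (mutant minus wild type) of each of the 42 members with its 95% interval from limma (bars), n = 4 and 4 libraries, coloured by role. Every interval includes 0, and the widest is that of Psmg3 (-0.10 to 1.33).

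The 3 catalytic subunits of the core were among the closest to 0. Psmb6, which carries the caspase-like site, stood at 273.2, 260.8, 245.4 and 266.5 normalized counts in wild type replicates 1 to 4, while mutant replicates 1 to 4 gave 266.3, 274.1, 240.6 and 291.9. The genotypes overlapped, and the log2 fold change was 0.03 ± 0.11 (SE). Psmb6 also had the smallest spread of all members, with a coefficient of variation of 6.18% over 8 libraries, where counting error alone gives 6.09%. Psmb7, with the trypsin-like site, stood at 142.8, 120.0, 151.9 and 147.0 in wild type and at 145.6, 139.1, 133.3 and 142.8 in mutants. All mutant libraries lay inside the wild type range, and the log2 fold change was 0.00 ± 0.13. Psmb5, with the chymotrypsin-like site, the one that proteasome inhibitor drugs bind best, stood at 85.5, 122.6, 84.7 and 97.4 in wild type and at 75.4, 94.97, 110.4 and 106.0 in mutants. Its log2 fold change was -0.01 ± 0.17, with an interval of -0.37 to 0.35. The exons of Psmb5 overlap the annotated miRNA Mir686 on the same strand. Per length, Psmb6 (141.5 per kb) and Psmb5 (108.0) were above Psmb7 (41.0), and the plotted libraries of Psmb7 did not reach theirs. Before division by length, Psmb7 was above Psmb5, with mean normalized counts of 140.3 and 97.1. Their annotated exons span 3.42 and 0.899 kb.

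The other beta subunits are structural. Psmb1, the lowest of the 4 per length at 40.2 per kb, stood at 197.4, 153.9, 176.3 and 174.4 normalized counts in wild type and at 209.6, 199.1, 178.1 and 190.03 in mutants. The genotypes overlapped, and the log2 fold change was 0.15 ± 0.13, or 0.09 without wild type replicate 2. Psmb4 was the highest at 85.1 per kb. It stood at 165.7, 159.1, 190.9 and 127.5 in wild type and at 119.7, 175.8, 211.4 and 177.4 in mutant libraries, so that the lowest and the highest library were both mutant. Psmb2 and Psmb3 had log2 fold changes of -0.11 ± 0.18 and -0.00 ± 0.17.

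The alpha ring gave 2 members above 0 and 5 below, with log2 fold changes from -0.28 to 0.25. Psma3 was at the low end. It stood at 104.9, 70.4, 104.2 and 105.4 normalized counts in wild type and at 82.6, 102.5, 71.9 and 60.9 in mutants. Wild type replicates 1, 3 and 4 sat close together and replicate 2 lay below them, inside the mutant range, and the log2 fold change was -0.28 ± 0.19 (limma unadjusted p = 0.160). It was -0.42 without wild type replicate 2, with an unadjusted p under 0.05 and a limma adjusted p of 0.985. It was -0.16 without mutant replicate 4. With equal library totals it was also -0.16, where the median of all tested genes was 0.11. Psma5 stood at 77.5, 53.5, 55.5 and 46.0 in wild type and at 49.5, 43.3, 58.3 and 40.9 in mutants. Wild type replicate 1 was the high library here, and the log2 fold change was -0.26 ± 0.20, or -0.11 without that library. Psma1, at the other end, stood at 94.3, 44.3, 66.2 and 86.8 and at 104.3, 87.5, 63.5 and 82.9, with a log2 fold change of 0.25 ± 0.23, or 0.03 without wild type replicate 2 and 0.39 without wild type replicate 1. It was among the 3 most variable members over the libraries, with a highest value 2.35 times the lowest. Psma6 was the most abundant alpha subunit per length, at 83.6 per kb, with 115.4, 75.6, 121.7 and 101.8 normalized counts in wild type and 114.6, 110.8, 82.3 and 102.9 in mutants. The ring's other members, Psma2, Psma4 and Psma7, had log2 fold changes of -0.00, -0.04 and 0.05. Psma8, a form known from testis, was not listed, nor was Psmb11, the beta subunit of the thymic form.

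In the base of the cap, all 6 ATPase genes had a log2 fold change above 0, from 0.01 to 0.22 with a median of 0.14, and none was called or had an unadjusted p under 0.05. The share of all tested genes above 0 was 48.1%, and the sum of the 6 ranged from 833.4 to 947.3 normalized counts in wild type and from 891.5 to 990.04 in mutant libraries, so the genotypes overlapped. Over the 21 other settings tried, 5 or 6 of the 6 were above 0, but the median was 0.09 without wild type replicate 2 and 0.26 with equal library totals. Psmc5 stood at 106.6, 97.8, 96.4 and 102.7 in wild type and at 116.6, 133.3, 102.1 and 106.0 in mutants. Only the lowest mutant libraries fell inside the wild type range, and the log2 fold change was 0.17 ± 0.14 (unadjusted p = 0.229), or 0.10 without mutant replicate 2. Psmc3, the ATPase with the highest level per length at 112.1 per kb, stood at 264.4, 296.1, 285.3 and 319.6 and at 266.3, 299.9, 269.7 and 337.01, a log2 fold change of 0.01 ± 0.12. Psmc2, the lowest per length at 26.1 per kb, stood at 149.8, 117.4, 116.9 and 121.3 and at 148.6, 149.9, 120.8 and 127.04, so that each genotype held both higher and lower libraries. Psmc6, Psmc1 and Psmc4 had log2 fold changes of 0.22 ± 0.19, 0.17 ± 0.15 and 0.11 ± 0.13.

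The base also holds subunits without ATPase activity. Psmd2, a large scaffold subunit, was the highest of them per length at 67.2 per kb and varied little, with 266.1, 273.9, 301.9 and 261.2 normalized counts in wild type and 252.9, 262.4, 259.3 and 294.0 in mutants. Its coefficient of variation was 6.45%, with 6.02% from counting alone. Psmd1, the other large scaffold, was the lowest at 19.1 per kb. It stood at 141.0, 125.2, 119.8 and 159.4 in wild type and at 162.1, 153.3, 116.6 and 133.3 in mutants, so that the mutants held both the highest and the lowest library. Its exons overlap those of the predicted gene Gm21972 on the same strand. The ubiquitin receptor Psmd4 had 140.9 ± 16.5 and 141.7 ± 15.9.

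The lid held the single member whose genotypes did not overlap. Psmd11, a lid subunit that braces the cap against the core (chromosome 11, 80428615 to 80473248, plus strand, GRCm38), stood at 139.2, 150.0, 158.7 and 146.1 normalized counts in wild type and at 182.7, 175.8, 177.0 and 160.6 in mutants. Every mutant library was above every wild type library, by a small margin between wild type replicate 3 and mutant replicate 4. The log2 fold change was 0.23 ± 0.12 (SE), with an interval of -0.03 to 0.48, an unadjusted p of 0.0786 and a limma adjusted p of 0.9997. With equal library totals it was 0.35, with an unadjusted p under 0.05 and a limma adjusted p of 0.964, where the median of all tested genes was 0.11. This is 1 of 42 members without overlap and higher in mutants (2.38%), where 0.831% of all tested genes were, and 0 members were without overlap and lower, where 1.04% of tested genes were (1.87% in either direction). Psmd6, the lid member with the highest level per length at 109.0 per kb, stood at 305.8, 306.5, 334.01 and 333.8 in wild type and at 233.3, 311.6, 284.3 and 331.8 in mutants, a log2 fold change of -0.15 ± 0.13. Here mutant replicate 1 was the low library, and without it the log2 fold change was -0.05. Psmd14, the deubiquitinase that removes the ubiquitin chain, was the lowest lid member at 21.7 per kb. It stood at 78.4, 37.8, 51.6 and 71.7 and at 71.2, 75.0, 52.1 and 51.4, and all mutant libraries lay inside the wild type range. The 5 other lid members (Psmd3, Psmd7, Psmd8, Psmd12 and Psmd13) had log2 fold changes from -0.19 to 0.08.

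The assembly chaperones held the largest difference. Psmg3, which pairs with Psmg4 in building the alpha ring (chromosome 5, 139823592 to 139826885, minus strand), stood at 9.69, 11.7, 6.82 and 8.85 normalized counts in wild type and at 16.5, 10.8, 16.7 and 14.7 in mutants. Mutant replicate 2 was inside the wild type range and the other 3 were above it. The log2 fold change was 0.61 ± 0.34 (SE; unadjusted p = 0.0888), on 7 to 16 reads per library, and it was 0.39 with a pseudocount of 8. Its exons overlap those of the predicted gene Gm26938 on the same strand. Psmg4, with a mean of 5.13, was not tested and had 1 to 8 reads per library. Psmg1 and Psmg2 form the other alpha ring chaperone. Psmg1, the highest core chaperone per length, stood at 31.7, 31.3, 32.1 and 34.5 in wild type and at 33.03, 45.0, 22.9 and 36.7 in mutants, with the wild type libraries close together and the mutants on both sides of them (log2 fold change 0.05 ± 0.23). Psmg2 had a log2 fold change of -0.06 ± 0.24. Among the cap chaperones, Psmd9 had the largest spread over libraries of any member. It stood at 23.8, 39.1, 32.1 and 16.8 in wild type and at 27.9, 39.2, 26.04 and 45.1 in mutants, a highest value 2.68 times the lowest, with a log2 fold change of 0.32 ± 0.28, or 0.11 without wild type replicate 4 and 0.50 without wild type replicate 2. Psmd5, the highest cap chaperone per length at 10.4 per kb, stood at 84.6, 75.6, 78.9 and 79.7 in wild type and at 71.2, 54.1, 66.7 and 93.4 in mutants. The mutant libraries enclosed the wild type ones, and the log2 fold change was -0.18 ± 0.17, or -0.06 without mutant replicate 2 and -0.32 without mutant replicate 4. Psmd10, which encodes gankyrin, rested on 11 to 16 reads per library (log2 fold change -0.03 ± 0.31).

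Of the activators, Psme4, a large protein that caps the core in the nucleus, had the most reads of all members. It stood at 820.4, 541.3, 649.5 and 862.3 normalized counts in wild type and at 740.2, 790.5, 503.02 and 683.5 in mutants, a log2 fold change of -0.08 ± 0.16. Its coefficient of variation was 18.5%, where counting alone gives 3.72%. Per length it was at 83.4 per kb. Psme1 and Psme2 form the interferon-induced activator of antigen processing. Psme1 stood at 31.7, 40.4, 27.3 and 29.2 in wild type and at 32.0, 31.7, 46.9 and 45.1 in mutants, with 2 mutant libraries above all others and 2 inside the wild type range. Its log2 fold change was 0.26 ± 0.22, or 0.16 without mutant replicate 3. Its partner Psme2 had 40.2 ± 6.35 and 39.3 ± 2.77, a log2 fold change of -0.02 ± 0.19. The nuclear activator Psme3 had 196.5 ± 22.8 and 180.8 ± 17.3. Psmf1 (PI31) had 76.2 ± 19.5 and 64.9 ± 10.5, a log2 fold change of -0.21 ± 0.20, which was -0.08 without wild type replicate 2, -0.09 without mutant replicate 1 and -0.35 without wild type replicate 1.

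The members did not move as 1 block from library to library. Each member's log2 value was set against its own mean over the 8 libraries. In wild type replicates 1 to 4, 23, 17, 23 and 24 of the 42 members were above their own mean, and in mutant replicates 1 to 4, 20, 26, 16 and 27 were. The median deviation ran from -0.09 in wild type replicate 2 to 0.09 in mutant replicate 2, and each genotype held libraries on both sides of 0. Over all tested genes this median ran from 0.00 to 0.01. The heat map of deviations shows members that were low and members that were high within the same library. In wild type replicate 2, Psma1 was 0.77 log2 units below its mean and Psmf1 0.50 above.

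**Figure D3:**
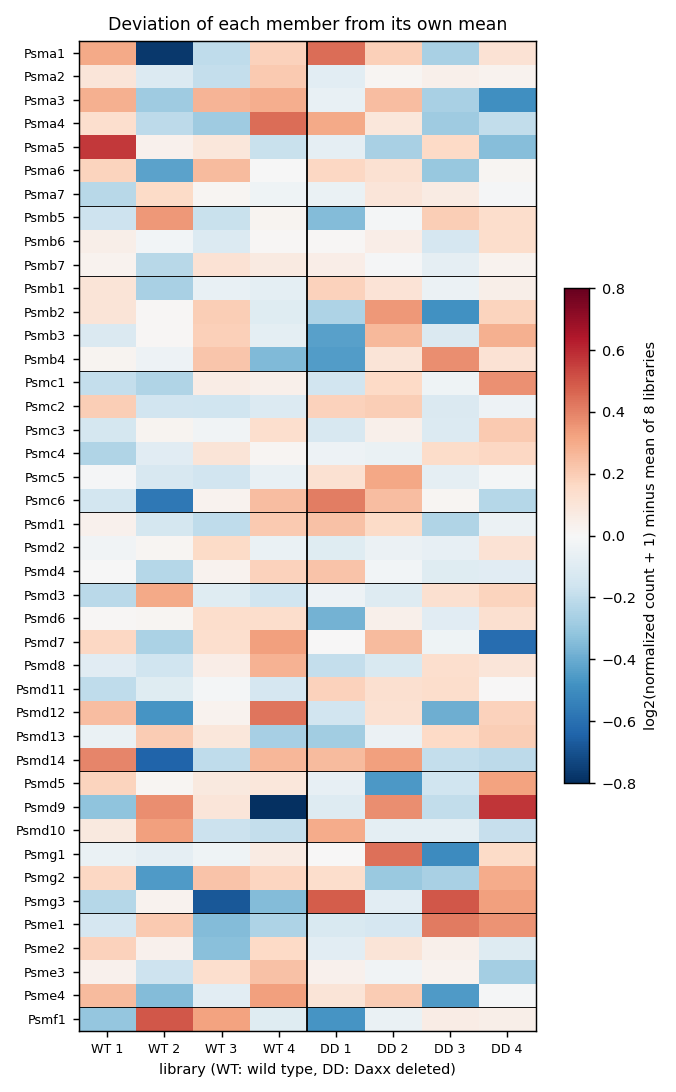
Deviation of each member (rows, grouped by role) in each library (columns) from its own mean log2(normalized count + 1); red is above and blue below the mean. No role group is red or blue throughout 1 genotype, and wild type replicate 2 holds both strongly blue members (Psma1, Psmd14, Psmc6) and red ones (Psmf1, Psmb5).

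GC content of the transcripts moved with these deviations. The longest annotated transcript of the members had 37.0% (Psmc6) to 57.4% GC (Psma7), with a median of 49.6%, against 49.8% for all tested genes. Across the 42 members, Pearson's r between GC content and deviation was -0.40, 0.51, -0.03 and -0.31 in wild type replicates 1 to 4 and -0.46, -0.15, 0.32 and 0.37 in mutant replicates 1 to 4. These are descriptions across genes, which share each library and are not independent. Across all tested genes the values were -0.25, 0.39, 0.09 and -0.39, and -0.16, -0.27, 0.40 and 0.09. Each genotype thus held libraries in which GC-rich members were higher and libraries in which they were lower. With the GC trend removed from each library, in a step chosen after seeing the data, 0 members were called, 25 of 42 had a log2 fold change above 0, and the median SD of the members over 8 libraries went from 0.22 to 0.21 log2 units. The part of GC in the spread of single members was not tested further.

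The spread of the members was slightly smaller than that of all tested genes. The highest library was 1.57 times the lowest in the median member and 1.73 times in the median tested gene, and only Psma1, Psmd9, Psmd14 and Psmg3 exceeded 2 times. The median coefficient of variation was 15.8% over 8 libraries, where counting alone gives a median of 9.53%. In 18 of the 42 members it was under 1.5 times the counting error. Levels differ between members and other genes, and counting error falls with level, so the smaller spread is a description and was not tested against genes of like level.

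The interferon-induced subunits left out by the rule replace the catalytic ones in the immunoproteasome. Each was set against its constitutive partner within a library. Psmb9 stood at 6.17, 2.61, 2.92 and 0.885 normalized counts in wild type and at 6.19, 9.16, 7.29 and 7.35 in mutants, on 1 to 7 and 6 to 11 reads per library. Its ratio to Psmb6 was 0.0226, 0.0100, 0.0119 and 0.00332 in wild type and 0.0233, 0.0334, 0.0303 and 0.0252 in mutants, with no overlap. The log2 ratio was 1.15 higher in mutants (exact two-sided permutation p = 0.0286). This p is the smallest that 70 relabellings allow, and adjusted over 3 ratios it becomes 0.0857, so with these numbers of libraries 1 ratio alone could not pass the threshold of 0.05. The difference was 0.81 without wild type replicate 4 and 0.46 with a pseudocount of 8. Psmb9 and Psmb8 lie on chromosome 17 (34181987 to 34187764 and 34197721 to 34201454), the chromosome of Daxx (33909414 to 33915590). Psmb8 stood at 15.9, 5.22, 9.74 and 6.20 and at 9.29, 12.5, 24.99 and 4.20, and its ratio to Psmb5 overlapped between genotypes (log2 difference 0.31, permutation p = 0.629, adjusted 0.629). Immune cells express both genes at high levels. The summed level of the 5 tested of 10 immune markers was 150.5 to 272.3 in wild type and 140.7 to 375.7 in mutant libraries, and their part in these ratios was not tested.

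Psmb10 stood far above the other 2 interferon-induced subunits. It stood at 661.8, 907.8, 713.8 and 614.4 normalized counts in wild type and at 636.9, 585.6, 617.6 and 752.8 in mutants, all above Psmb7. Its ratio to Psmb7 was 5.27 ± 1.55 (SD, n = 4) in wild type and 4.62 ± 0.467 in mutants (log2 difference -0.15, permutation p = 0.629, adjusted 0.629). Per length Psmb10 was at 402.5 per kb, above every member, while Psmb8 was at 3.25 and Psmb9 at 1.45. Psmb10 (chromosome 8, 105935735 to 105938444) and Ctrl (105932003 to 105933862) both lie on the minus strand, with Ctrl downstream of Psmb10. Ctrl, a chymotrypsin-like enzyme gene, had 165685 to 234946 normalized counts per library. Wild type replicate 2 was the highest library in both genes. Among the 12 acinar markers it was also the highest library for Ctrb1, Cpa1 and Rbpjl. Prss2, Cpb1, Cela1, Cela2a, Pnlip, Amy2a5, Cel, Ptf1a and Bhlha15 were highest in other libraries. The part of reads from the Ctrl locus in the Psmb10 value was not tested.

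**Figure D4:**
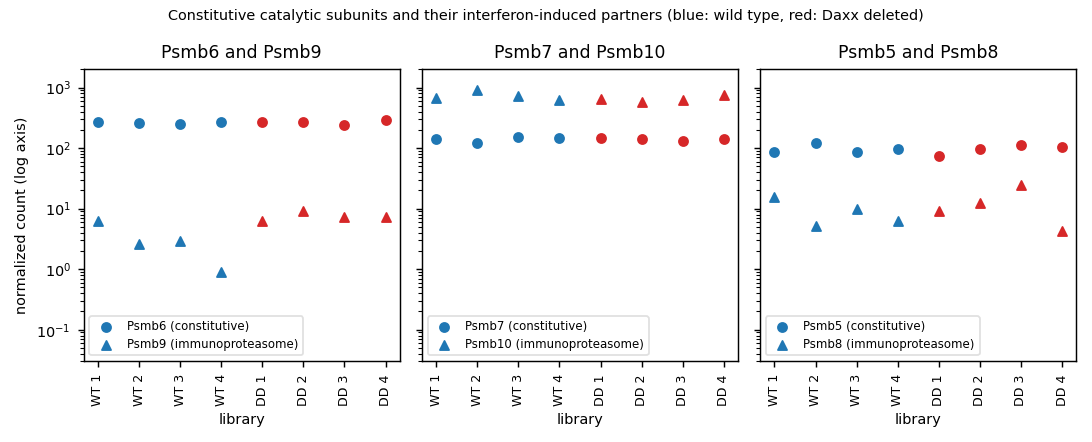
Normalized count (log axis) of each constitutive catalytic subunit (circles) and its interferon-induced partner (triangles) in each library, blue wild type and red mutant. Psmb9 and Psmb8 lie far below Psmb6 and Psmb5 in every library, whereas Psmb10 lies above Psmb7.

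Genes around the proteasome also gave no call. Of 11 tested genes for other subunits, assembly and bound factors, 6 lay above 0 and 5 below (median log2 fold change 0.02), and 0 were called. In this list the normalized count of Pomp, the maturation factor of the beta ring, averaged 58.5 ± 7.81 (SD, n = 4) in wild type, and 68.6 ± 6.19 in mutants. Zfand5, an activator of the 26S particle, had 68.6 ± 8.91 and 61.1 ± 11.2, and the ubiquitin receptor Adrm1 had 104.1 ± 17.6 and 113.7 ± 6.82. Of 12 tested genes of the Nfe2l1 route and of its relative Nfe2l2, 7 lay above 0 and 5 below (median 0.04), with 0 called. Nfe2l1 itself stood at 402.7, 477.4, 430.4 and 435.6 in wild type and at 476.9, 399.9, 426.0 and 513.4 in mutants, overlapping, with a log2 fold change of 0.05 ± 0.11. The 3 smallest unadjusted p in this list were those of Btrc, a ubiquitin ligase subunit (70.2 ± 8.60 and 54.5 ± 11.9), the small Maf gene Mafk (103.5 ± 28.1 and 80.6 ± 6.93) and Nfe2l2 (72.7 ± 17.5 and 85.0 ± 13.7). Of 15 tested genes of ubiquitin supply and substrate delivery, 10 lay above 0 and 5 below (median 0.04), with 0 called. Among them were Faf2 (193.3 ± 24.6 and 164.3 ± 14.7) and Ufd1 (80.6 ± 11.4 and 90.3 ± 9.02), both partners of the Vcp ATPase, and the ubiquitin gene Rps27a (905.8 ± 47.6 and 979.2 ± 96.4).

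The interferon response list was examined because Psme1, Psme2 and the left-out subunits respond to interferon. Of its 14 tested genes, 13 lay above 0 and 1 below, with a median log2 fold change of 0.16 beside -0.01 over all tested genes, and 0 were called. Of all tested genes, 48.1% lay above 0. With equal library totals the list's median was 0.28, where that of all tested genes was 0.11, and 14 of 14 lay above 0, as did 74.3% of all tested genes. Without mutant replicate 1 the median was 0.28 with the authors' size factors, and without wild type replicate 1 it was 0.24. It was 0.12 without mutant replicate 3. Leaving out wild type replicate 2 gave a median of 0.13, with 11 of 14 above 0. Of the 5 tested immune markers, 4 lay above 0 with a median log2 fold change of 0.14, and 0 were called. The leukocyte gene Ptprc was at 0.35 ± 0.48 (SE) and the plasma cell gene Jchain at 1.17 ± 0.96. Mrc1 was at 0.14 ± 0.18, Csf1r at 0.07 ± 0.24 and Adgre1 at -0.10 ± 0.29. Jchain had 84 reads in mutant replicate 2 and 0 to 21 in every other library. Without wild type replicate 4 the immune median was -0.08, and without mutant replicate 2 it was 0.00. It was 0.29 without mutant replicate 4 and 0.25 without wild type replicate 1. The part of immune cells in the interferon list was not tested. The 3 smallest unadjusted p were those of Tapbp (153.6 ± 6.66 and 200.9 ± 22.8), Bst2 (51.8 ± 4.52 and 69.6 ± 15.4) and Tap1 (24.6 ± 12.8 and 34.6 ± 9.01). Tapbp stood at 147.2, 157.8, 160.7 and 148.7 in wild type and at 181.7, 180.8, 220.8 and 220.5 in mutants, without overlap. It lies next to Daxx on chromosome 17 (33915899 to 33929292), and Tap1 lies there between Psmb9 and Psmb8. The part of that position in these values was not tested. Tapbp was the 1 gene of 14 in this list with an unadjusted p under 0.05, where 2.88% of all tested genes had one, and its limma adjusted p was 0.9997.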

How the data were processed

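Whole pancreas of 8 mice, 4 per genotype, was sequenced with a stranded total RNA kit, per the labels' protocols. The authors deposited 1 table of signal values, read counts divided by a size factor per library. STAR 2.6.0b, DESeq2 and GRCm38 are named in the submitters' processing notes; the sources used here do not name the read counter. Multiplying a library's values by its depth step gave whole reads for 100% of values, within 0.001. No pair of groups shares replicate numbers in the labels; replicates were numbered in accession order. Genes with a mean of at least 10 were tested (10468 of 11789; 1321 removed) as log2(normalized count + 1) with limma 3.58.1 (R 4.3.3, trend option), genotype as the only term, two-sided, Benjamini-Hochberg adjustment over all tested genes, threshold 0.05. Fold changes on this scale understate those of low genes. Ratios and Daxx were tested by exact permutation. edgeR 4.0.16 and DESeq2 1.42.0 were run on recovered reads as alternatives. Lengths, GC content and coordinates are from GENCODE M21 (GRCm38; 11781 of 11789 IDs matched without their version). Values in every library are given for the catalytic subunits, the 6 members with the smallest unadjusted p, the 3 with the largest SD of log2 values, and the highest and lowest per length in each role group; the 3 genes with the smallest p are named from each other list. The members and lists were chosen with earlier results of these data known. The labels do not say which library is from which sex. The limma p-values set the genotype difference against the spread between these libraries, moderated over all tested genes. The permutation p-values count relabellings of the libraries.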

Additional observations from a re-analysis of the deposited data

Results flagged for a closer look

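Each group of 4 libraries was checked, for the 42 members and the other genes named, using Dixon's test at the 95% level to find a library standing apart. Of 122 groups 3 had one, where chance gives about 6.1. All 3 were members in wild type pancreas. Psmc2 stood at 149.8 normalized counts in wild type replicate 1 and between 116.9 and 121.3 in the other 3. Psma3 stood at 70.4 in wild type replicate 2 and between 104.2 and 105.4 in the other 3. Psmg2 stood at 20.9 in wild type replicate 2 and between 32.6 and 34.1 in the other 3.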

How the results depend on the processing

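No paired analysis was possible because the labels give no replicate numbers that tie mice across genotypes. Under the 21 alternatives and at an adjusted p under 0.10, 0 members were called, out of 42, or of 35 with a minimum mean of 50. Leaving out Psmc3ip and Psme3ip1 gave no other value, since neither was a member. Over all genes, 1 was called by DESeq2, when Y-linked expression was a covariate, under robust variance moderation, with equal library totals and without mutant replicate 2 (0 to 1 over left-out libraries). The members' median log2 fold change was 0.13 with equal totals, where that of all genes was 0.11, and -0.0021 to 0.04 with 1 library left out. Daxx kept its direction (-0.82 to -0.62). The log2 ratio difference of Psmb9 to Psmb6 ran from 0.46 to 1.299 over pseudocounts and from 0.81 to 1.44 with 1 library left out; its p could not pass the threshold after adjustment in these designs, so it does not bear on stability.

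Of 771 checks of single genes, 736 kept direction and call, and 35 in 12 genes changed sign, with none called; the cause was not tested. Equal totals gave log2 fold changes of 0.11 for Psmb5, 0.12 for Psma6, 0.076 for Psmd2 and 0.046 for Psme4. Under that setting the median of all tested genes was 0.11, beside -0.01 in the main fit. Psmb5 was at 0.023 with array weights, 0.0051 in edgeR and 0.0032 with quantile normalization, where Psma6 was at 0.0092. Psmb7 was at -0.0081 in DESeq2 and -0.024 with array weights. GC trend removal gave 0.017 for Psma6 and -0.0058 for Psmc3. With 1 library left out, the range was -0.079 to 0.10 for Psmb5, -0.0074 to 0.085 for Psmb6, -0.070 to 0.042 for Psmb7, -0.14 to 0.099 for Psma6, -0.036 to 0.24 for Psmb4, -0.063 to 0.052 for Psmc3, -0.020 to 0.14 for Psmd1, -0.10 to 0.24 for Psmd14, -0.20 to 0.061 for Psme4, -0.093 to 0.22 for Psmg1 and -0.081 to 0.69 for Psmb8. It was -0.0033 to 0.75 for the log2 ratio of Psmb8 to Psmb5 and -0.25 to 0.033 for that of Psmb10 to Psmb7. Genes with few reads, such as Psmg3, Psmg4, Psmd10, Psmb8 and Psmb9, are limited by depth.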
